A study of Mus musculus with 2 samples.

Results

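The integrin and laminin genes of the mouse were examined for EP300 peaks in newborn stomach. Members were taken from the GENCODE M21 annotation by symbol, as protein-coding genes named Itga or Itgb with a number or letter code, or Lama, Lamb or Lamc with a number. This gave 38 of 21938 protein-coding genes on named chromosomes, 27 integrins and 11 laminins. The measurement was chromatin immunoprecipitation followed by sequencing (ChIP-seq) with an antibody against EP300, on stomach tissue of strain B6NCrl taken at postnatal age 0 days. There were 2 libraries in 1 group, with no other condition and no control group among them. The libraries are labelled as separate biological replicates (1 and 2), yet their biosample and donor labels are identical, so the spread between them may be technical. Sex was not recorded, and whole stomach holds epithelium, smooth muscle, mesenchyme, vessels, nerve and blood cells. A peak could come from any of these, and a strong peak in few cells cannot be told apart from a weak peak in many.

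EP300 is a transcriptional coactivator and histone acetyltransferase that is brought to enhancers and promoters by DNA-binding factors, and its peaks are widely used to map active regulatory DNA. Integrins are cell-surface receptors made of an alpha and a beta chain, which together bind matrix proteins or other cells and link them to the actin or keratin cytoskeleton. Laminins are trimers of an alpha, a beta and a gamma chain that form the sheet of the basement membrane. In the stomach the epithelium and each smooth muscle cell rest on a laminin-containing basement membrane, and the squamous forestomach is anchored to it by hemidesmosomes. EP300 near these genes is a measure of occupied DNA, not of expression.

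A peak was given to a gene when its summit lay in the gene body or within 50 kb of the gene's start. The peaks used are the optimal set, those kept by the irreproducible discovery rate (IDR) procedure, with 7733 summits on named chromosomes. How strong a peak is was read from the signal column of each list, and values are given in the order pooled reads, replicate 1, replicate 2. Each of these lists has its own scale, so a pooled signal is not comparable with a replicate signal. No read counts are in the files, and the depth of the libraries is unknown. No test was run, since there is 1 group. Intervals for shares are exact Clopper-Pearson 95% intervals and cover counting error only.

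The tissue label was checked against peaks near marker genes. Summits lay near 5 of 5 smooth muscle markers, 3 of 4 squamous forestomach markers, 3 of 6 gastric epithelium markers and 2 of 4 gastric mesenchyme markers, where 36.7% of all protein-coding genes had one by the same rule. A summit nearest to the marker's own start was found for 4, 1, 0 and 2 of these markers in that order, against 19.3% of all genes. The strongest summits at Krt13 and Krt15 were nearest to Krt32 and Krt19. Those at Actg2, Tagln and Cnn1 were nearest to Dguok, Pcsk7 and Ecsit. Atp4a and Atp4b, the proton pump chains of parietal cells, and Muc5ac, the surface mucin, had none. For cells of other kinds, a summit lay near 1 of 3 endothelial, 1 of 3 blood and 1 of 4 enteric neuron and glia markers. A summit nearest to the marker's own start, in or outside its territory, was found for 1, 0 and 0 of them. The 2 gastric epithelium markers Gkn1 and Gkn2 shared 1 peak whose nearest coding start was that of Antxr1, and the parts of these cell types in the peaks at integrin and laminin genes were not tested.

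The sequences that carry the findings are printed first. They are taken from the mm10 (GRCm38) assembly, read 5′ to 3′ on the plus strand, from 100 bases before to 100 bases after a summit, and stretches of untranslated exon were left out beyond short runs around a match. Capitals mark matches to the motifs described further on, on either strand. The first set is the strongest peak of the 6 members with the highest signal whose strongest peak held a match. The name of the gene with the nearest coding start follows where it is not the member.
Lamb2 at Qrich1, GRHL match in its untranslated exon, chr9:108516977-108517004, plus strand: tctccactccAACCGGTTccctctgtgg
Itgae at Haspin, ETS match, chr11:73138295-73138417, plus strand: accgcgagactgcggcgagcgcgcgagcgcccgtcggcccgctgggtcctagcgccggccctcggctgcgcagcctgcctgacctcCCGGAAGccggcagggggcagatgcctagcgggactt
Itga10 at Ankrd35, KLF and SP, GATA and AP-1 matches in that order, chr3:96679403-96679603, plus strand: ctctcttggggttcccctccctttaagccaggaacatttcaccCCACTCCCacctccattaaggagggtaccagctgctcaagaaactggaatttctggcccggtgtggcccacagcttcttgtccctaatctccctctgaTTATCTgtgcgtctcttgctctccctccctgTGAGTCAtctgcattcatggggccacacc
Itgb6 intron, TEAD, AP-1 and KLF and SP matches in that order, chr2:60703379-60703579, plus strand: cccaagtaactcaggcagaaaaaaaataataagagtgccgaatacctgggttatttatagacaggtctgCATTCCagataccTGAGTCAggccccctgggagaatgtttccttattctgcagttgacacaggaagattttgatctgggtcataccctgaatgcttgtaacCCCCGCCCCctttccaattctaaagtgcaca
Itgb1 upstream, TEAD match, chr8:128679965-128680165, plus strand: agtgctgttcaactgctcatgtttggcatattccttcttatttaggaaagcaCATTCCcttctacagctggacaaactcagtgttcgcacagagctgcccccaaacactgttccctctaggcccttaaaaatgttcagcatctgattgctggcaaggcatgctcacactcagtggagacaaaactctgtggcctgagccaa
Itga2b at Fam171a2, GRHL match, chr11:102449470-102449670, plus strand: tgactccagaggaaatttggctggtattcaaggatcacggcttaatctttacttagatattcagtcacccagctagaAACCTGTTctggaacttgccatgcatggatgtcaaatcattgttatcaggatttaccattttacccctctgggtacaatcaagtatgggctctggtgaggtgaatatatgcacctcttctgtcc

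A second set shows the promoter peaks of Itgb1 and Lamb2 and the own-start peaks of Itga9 and Itga8, integrin alpha chains whose windows held a match. It was chosen after the values were seen.
Itgb1 promoter, no match, chr8:128685287-128685487, plus strand: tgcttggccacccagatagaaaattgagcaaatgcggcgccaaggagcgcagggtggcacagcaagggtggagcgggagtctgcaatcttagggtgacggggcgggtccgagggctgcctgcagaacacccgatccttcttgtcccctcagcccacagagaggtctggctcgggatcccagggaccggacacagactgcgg
Lamb2 promoter, TEAD match, chr9:108479000-108479200, plus strand: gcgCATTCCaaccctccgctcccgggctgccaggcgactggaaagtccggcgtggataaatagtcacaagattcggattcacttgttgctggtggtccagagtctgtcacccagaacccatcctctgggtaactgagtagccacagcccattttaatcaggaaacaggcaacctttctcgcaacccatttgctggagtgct
Itga9 intron, GRHL match, chr9:118731760-118731960, plus strand: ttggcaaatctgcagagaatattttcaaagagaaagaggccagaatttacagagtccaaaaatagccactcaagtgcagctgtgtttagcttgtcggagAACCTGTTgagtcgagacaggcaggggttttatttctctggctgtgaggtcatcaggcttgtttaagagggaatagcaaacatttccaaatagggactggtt
Itga8 upstream, RUNX and TEAD matches in that order, chr2:12325955-12326155, plus strand: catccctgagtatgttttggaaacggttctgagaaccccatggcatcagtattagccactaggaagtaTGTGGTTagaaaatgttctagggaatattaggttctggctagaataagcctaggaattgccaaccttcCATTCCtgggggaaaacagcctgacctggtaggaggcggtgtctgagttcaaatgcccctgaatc

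EP300 summits lay near 19 of the 38 genes (50%, interval 33.4 to 66.6). Over all protein-coding genes the same rule gave 8045 of 21938, or 36.7%, a share inside that interval. Integrins had a summit at 14 of 27 genes (51.9%, 31.9 to 71.3) and laminins at 5 of 11 (45.5%, 16.7 to 76.6). The territories counted are long: the median gene length was 64.1 kb for members, 56.9 kb for integrins and 113.9 kb for laminins, against 17.4 kb for all genes. Per 100 kb of territory there were 0.782 summits at members and 0.648 at all genes. Counting only the window around the start, 42.1% of members and 34.9% of all genes had a summit.

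Many of these summits lay at the start of a neighbouring gene. Of the 46 summits, in 37 separate regions, 29 had their nearest coding start at 1 of 20 other genes, and 17, in 13 regions, had it at the member. By nearest start, including summits outside the territory, 10 members had a summit (26.3%, 13.4 to 43.1) against 19.3% of all genes. These were 5 of 27 integrins (18.5%, 6.3 to 38.1) and 5 of 11 laminins (45.5%, 16.7 to 76.6). Inside the gene body the count was 7 of 38 (18.4%, 7.74 to 34.3) against 12.1%. Within 1 kb of a member's own coding transcript start it was 3 of 38 (7.89%, 1.66 to 21.4), with Itgb1 and Lamb2 among them, against 11.1%. Each of these background shares lies inside the members' interval.

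**Figure D1:**
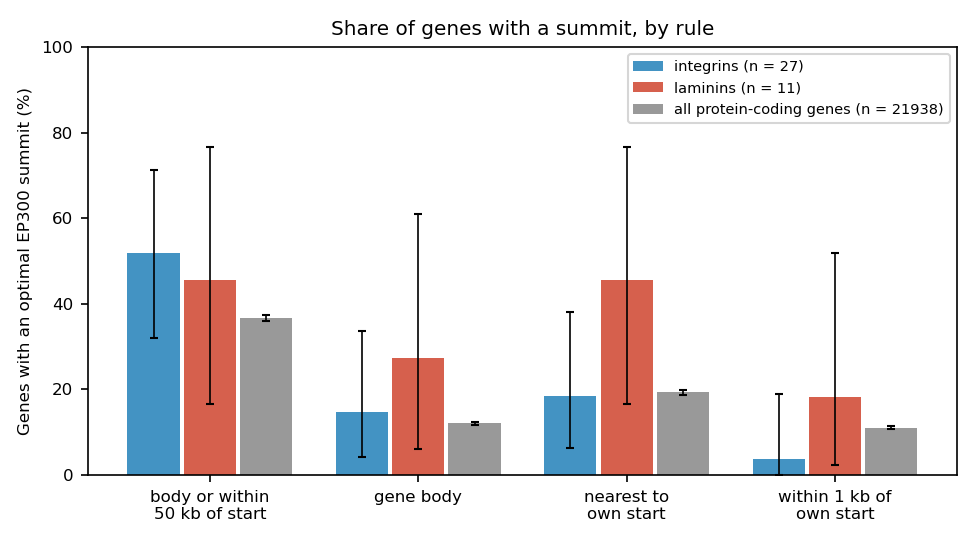
Bars give the percent of integrin genes, laminin genes and all protein-coding genes with an optimal EP300 summit under 4 rules of assignment, and error bars are exact Clopper-Pearson 95% intervals. By nearest start the laminins stand at 45.5% and the integrins at 18.5%, with overlapping intervals.

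**Figure D2:**
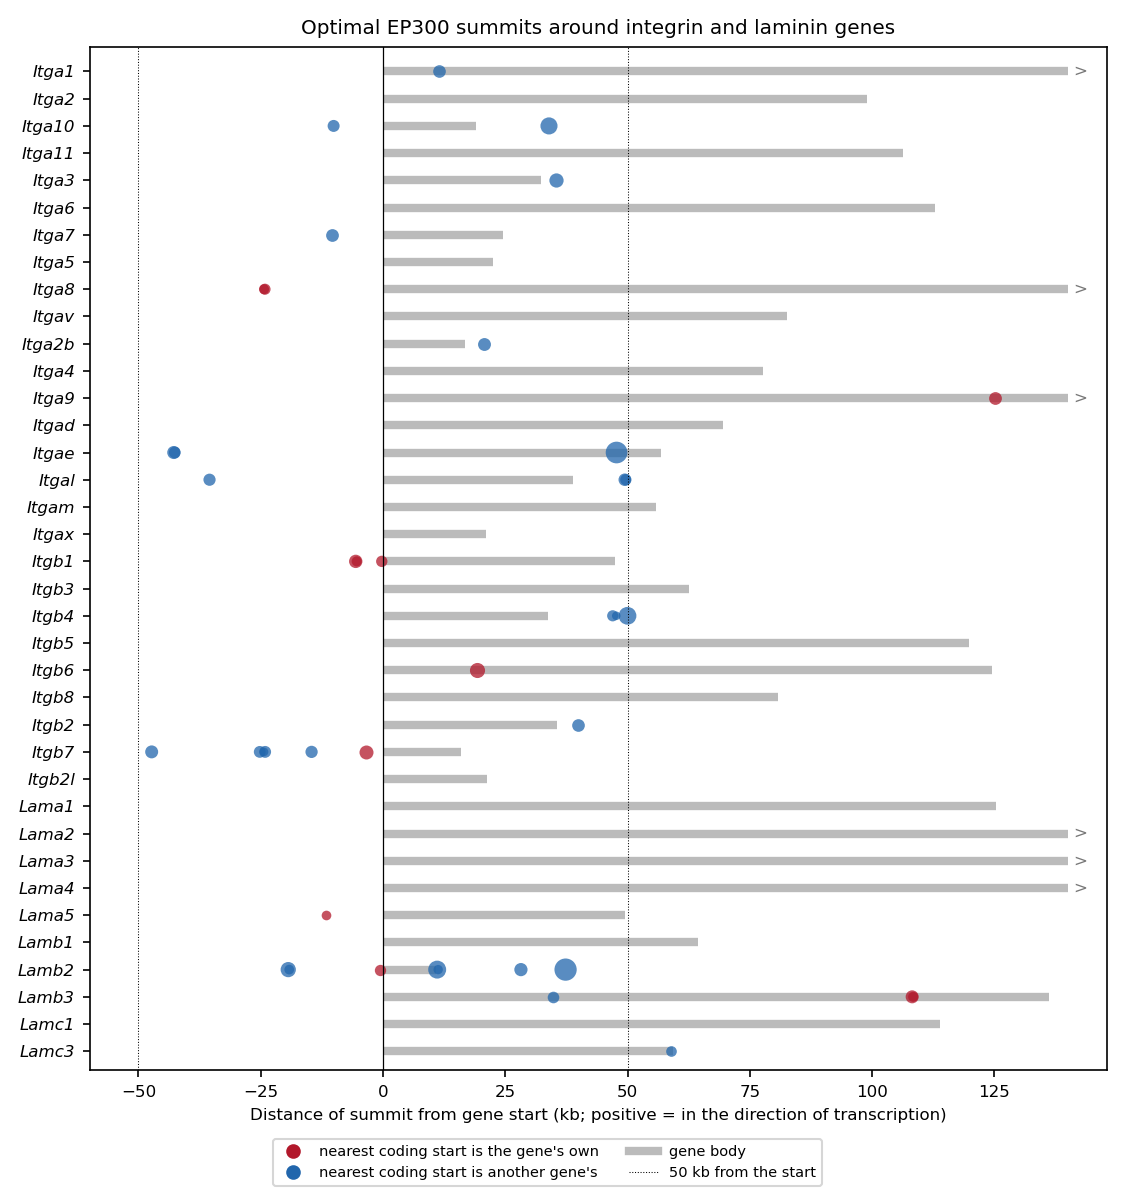
Each row is a gene, with its body as a grey bar from the start in the direction of transcription and dotted lines 50 kb from the start; bars running past the plot end in an arrowhead. Circles are summits, larger for a higher pooled signal, red where the nearest coding start is the gene's own and blue where it is another gene's. Red circles stand at 8 genes of the 37 drawn, and the largest circles are blue.

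Among the alpha chains that bind collagen, 2 of 4 had a summit and neither had one nearest to its own start. Itga1, a collagen receptor chain of smooth muscle and fibroblasts, had 1 summit, in an intron 11504 bp from its start, with signal 33.6 in the pooled list, 12.2 in replicate 1 and 18.6 in replicate 2. That summit lay 274 bp from the start of Pelo, a ribosome rescue gene that sits inside Itga1. Itga10, known from cartilage, had a peak 33919 bp downstream of its start in an intron of Ankrd35, with 71.6, 31.6 and 32.8, and this is the sequence above with 3 kinds of match. Itga2 and Itga11 had none.

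Of the 3 laminin-binding alpha chains, Itga3 and Itga7 had a summit and Itga6 had none. Itga3 pairs with Itgb1 in epithelia, and its peak of 45.9, 33.0 and 24.6 lay 97 bp from the start of Pdk2, a mitochondrial kinase gene, 35350 bp from that of Itga3. Itga7 is the laminin receptor chain of muscle, and its peak of 34.4 lay 180 bp from the start of Bloc1s1. It had 33.9 in replicate 1, rank 580 of that list, and 7.15 in replicate 2, rank 72997. A stronger replicate 2 peak, of 11.5 and rank 12187, had its summit within 560 bp of the replicate 1 summit but outside the optimal peak. By either value its place in the 2 lists differed. Itga6, the chain that forms the hemidesmosome receptor with Itgb4, had a highest pooled-list signal of 16.5.

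Among the 4 alpha chains that recognise the RGD sequence, Itga8 and Itga2b had a summit. Itga8, found in smooth muscle and mesenchyme, had 2 overlapping peaks in 1 region between 24133 and 24337 bp upstream, in intergenic DNA. The stronger gave 23.0 in the pooled list and 11.4 in both replicate lists, a low value in all 3. Itga2b is the platelet receptor chain, and its peak of 35.4, 10.9 and 27.2 lay 1888 bp from the start of Fam171a2. Itga5 and Itgav, the fibronectin and vitronectin receptor chains, had no optimal summit. Itgav had a peak 118 bp upstream of its start in the conservative set alone, with 30.6, 21.1 and 14.9.

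Of the alpha chains Itga4 and Itga9, only Itga9 had a summit in the optimal set. Itga9, a receptor chain for tenascin, carried it in an intron 20203 bp from its nearest coding transcript start, with 34.7, 15.5 and 20.4, and no other gene's coding start was nearer. The leukocyte alpha chains had a summit at Itgae and Itgal and none at Itgad, Itgam and Itgax. Itgae pairs with Itgb7 on lymphocytes within epithelia, and its strongest peak of 122.9, 50.1 and 68.0 lay in its intron, 23 bp from the start of Haspin, a mitotic kinase gene inside Itgae. The peak ranked 147 of the optimal set, 211 in replicate 1 and 122 in replicate 2. A pair of overlapping peaks of 36.8 and 27.3 lay at the start of Ncbp3. Itgal, the alpha chain of the lymphocyte receptor for ICAM proteins, had 3 summits of 24 to 32.7 at the starts of Zfp768 and Dctpp1. The Zfp768 summits shared 14.1 in replicate 1 and 18.2 in replicate 2. The Dctpp1 peak gave 30.3, 7.54 and 22.1, with rank 69093 in replicate 1 and 1783 in replicate 2. No peak of the leukocyte alpha chains was nearest to its own start.

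The beta chains outside leukocytes had a summit at 3 of 6 genes. Itgb1, the partner of most alpha chains, had 3 summits in 2 regions, all nearest to its own start. The upstream peak at 5589 bp gave 39.0, 27.7 and 17.2, and one overlapping it at 5388 bp gave 16.8 in the pooled list. The promoter peak, 267 bp upstream, gave 24.6, 11.5 and 14.9. Itgb6 is the epithelial chain that pairs with Itgav and activates latent TGF-beta. Its single peak lay in its intron 19164 bp from its start, with 53.2, 23.0 and 32.5, and it was the strongest of all summits nearest to a member's own start (rank 841 of the optimal set).

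Itgb4 is the beta chain of the hemidesmosome receptor. It had 3 summits 46948 to 49972 bp from its start, beyond its end, and all were nearest to H3f3b, which encodes a histone H3.3. The strongest gave 78.4, 52.3 and 28.9 at 177 bp from the H3f3b start, and lies just inside the 50 kb limit. The weakest gave 8.67 and 8.51, with no peak in replicate 2. Itgb3, Itgb5 and Itgb8 had none. Among the leukocyte beta chains, Itgb7 had 6 summits, Itgb2 had 1 and Itgb2l had none. Itgb7, the chain of gut-homing lymphocytes, had its strongest peak 3562 bp upstream, with 44.0, 13.2 and 18.2. It was the summit nearest to Itgb7, but it lay in an untranslated exon of Rarg, the retinoic acid receptor gene upstream of it. The other 5 were nearest to Rarg or Mfsd5, with 9.24 to 35.9. The peak 61 bp from a Rarg start gave 30.8 and 19.5, with no peak in replicate 2. An overlapping pair of 28.3 and 9.24 shared 22.2 in replicate 1 and 8.15 in replicate 2. The Mfsd5 peak gave 35.9, 15.4 and 19.5, and a further Rarg peak 27.8, 14.8 and 11.5. Itgb2 had 33.8, 17.3 and 17.1 at 11560 bp from the Pttg1ip start.

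Of the 5 laminin alpha chains, Lama5 alone had an optimal summit in its territory. Lama5 is the main alpha chain of epithelial basement membranes, and its peak lay 11607 bp upstream. It was weak, with 14.4 in the pooled list and 8.42 in replicate 1, and had no peak in replicate 2. A stronger pooled-list peak of 21.3 in the same territory was not in the optimal set. Lama1, Lama2, Lama3 and Lama4 had none. Lama4, the alpha chain of vessel and muscle basement membranes, had a peak 57052 bp away that was nearest to its start, with 30.6, 13.2 and 16.8, just outside the territory.

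Of the 3 beta chains, Lamb2 and Lamb3 had summits and Lamb1 had none. Lamb2, a chain of muscle and nerve basement membranes, had 7 summits in 5 regions. The peak nearest to its own start lay 636 bp upstream and gave 24.5, 10.8 and 15.0. The other 6 lay at the starts of Qrich1, Usp19, Ccdc71 and Qars. The Qrich1 peak gave 381.2, 179.2 and 199.8 and ranked 5 in the optimal set, 8 in replicate 1 and 5 in replicate 2. The Usp19 peak gave 80.3, 25.5 and 50.5, and that near Ccdc71 gave 54.4, 24.8 and 31.8, while Qars had 37.8, 9.62 and 23.8. Lamb2's own promoter peak was weaker than the strongest peak at each of these 4 neighbours.

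Lamb3 is the beta chain of the laminin of hemidesmosomes. It has annotated transcripts that start far upstream of its main body, so distances are given from the nearest coding transcript start. Lamb3 had a region in its intron at 13625 bp with 36.3, 13.6 and 20.8, overlapped by a peak of 16.8 at 13830 bp. A further peak of 26.2, 15.2 and 12.6 lay at the start of Hsd11b1, a glucocorticoid-activating enzyme gene. Lama3 had a peak 370 bp from a coding transcript start in the conservative set alone, with 23.4, 11.3 and 16.0. Lamc1, a gamma chain, had none, and the gamma chain Lamc3 had 1 weak summit at its far end, with 20.3, 12.3 and 5.99, nearest to Aif1l.

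**Figure D3:**
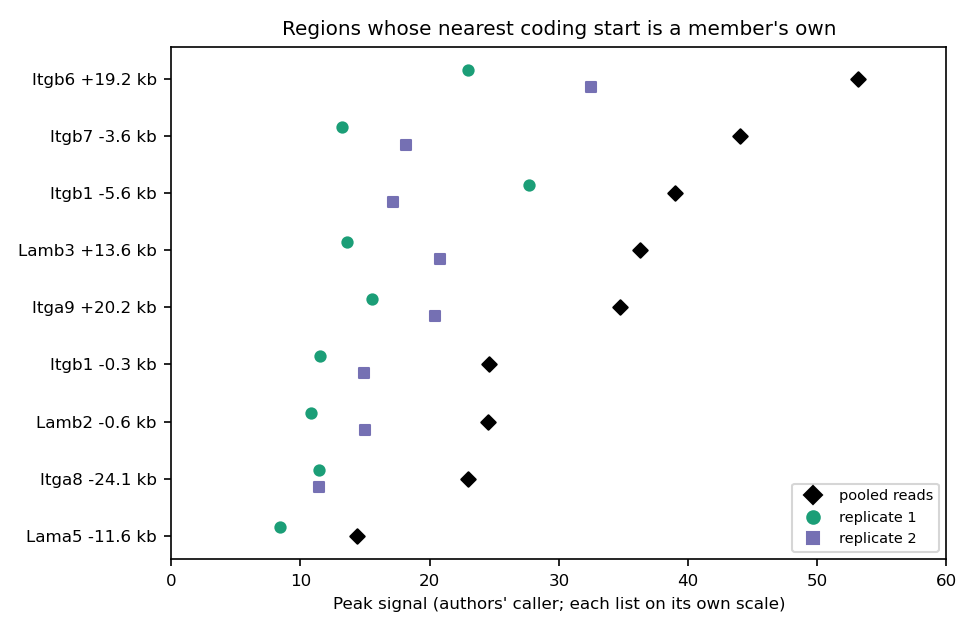
Points give the peak signal of 9 of the 13 regions whose nearest coding start is the member's own, in the pooled list, replicate 1 and replicate 2, each on its own scale; labels give the distance from that start. Signals run from 53.2 at Itgb6 to 14.4 at Lama5, and a missing mark means no peak in that replicate list (Lama5 in replicate 2).

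As a group, the 46 summits were of ordinary strength. Their median pooled signal was 30.6 (quartiles 23.1 and 37.5, range 8.67 to 381.2) against 30.2 for all optimal summits. The 17 summits nearest to a member's own start had a median of 24.6 and a range of 10.8 to 53.2, and the 29 nearest to another gene's start had 32.7 and 8.67 to 381.2. Of the 10 strongest, 3 were nearest to a member, with Itgb6 and Itgb7 among them, and 6 were promoter peaks of other genes. Of the 5 among the 500 strongest peaks of the optimal set, 0 were nearest to a member. Of the 46, 26 (56.5%) were also in the conservative set, against 61.3% of all optimal summits.

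Most summits nearest to another gene were promoter peaks, and most of those nearest to a member were not. Of the 46, 24 (52.2%, 36.9 to 67.1) lay within 1 kb of some coding transcript start, against 38.2% of all optimal summits. Of those nearest to another gene, 21 of 29 (72.4%, 52.8 to 87.3) did. Of those nearest to the member, 3 of 17 (17.6%, 3.8 to 43.4) did, and 7 (41.2%) lay over 10 kb away, against 44.7% of all. The median GC content around the summit was 48.8% at own-start summits, 58.2% at the others and 50.7% over the optimal set.

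The full lists were searched below the IDR threshold for promoter peaks. A pooled-list summit lay within 1 kb of a coding start of 20 of 38 members (52.6%) against 46.7% of all genes, in 12 of 27 integrins (44.4%) and 8 of 11 laminins (72.7%). Peaks of both replicate lists were there for 12 members (31.6%) against 34.7% of all genes. By family these were 6 of 27 integrins (22.2%) and 6 of 11 laminins (54.5%), and the difference was not tested. Lama3, Lama5, Lamb1, Lamb2 and Lamc1 were among these laminins. Lamb1 gave 20, 11.5 and 9.27, and Lamc1, the gamma chain of most laminins, gave 17.8, 7.46 and 7.03. Among the integrins Itgav, Itgb1 and Itgb7 were the highest in the pooled list, with 30.6, 24.6 and 20.2. The median of members with a pooled promoter peak was 16.1, against 15.6 over all genes. Each list holds 300000 peaks, many of them weak, and a listed peak is not a call.

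**Figure D4:**
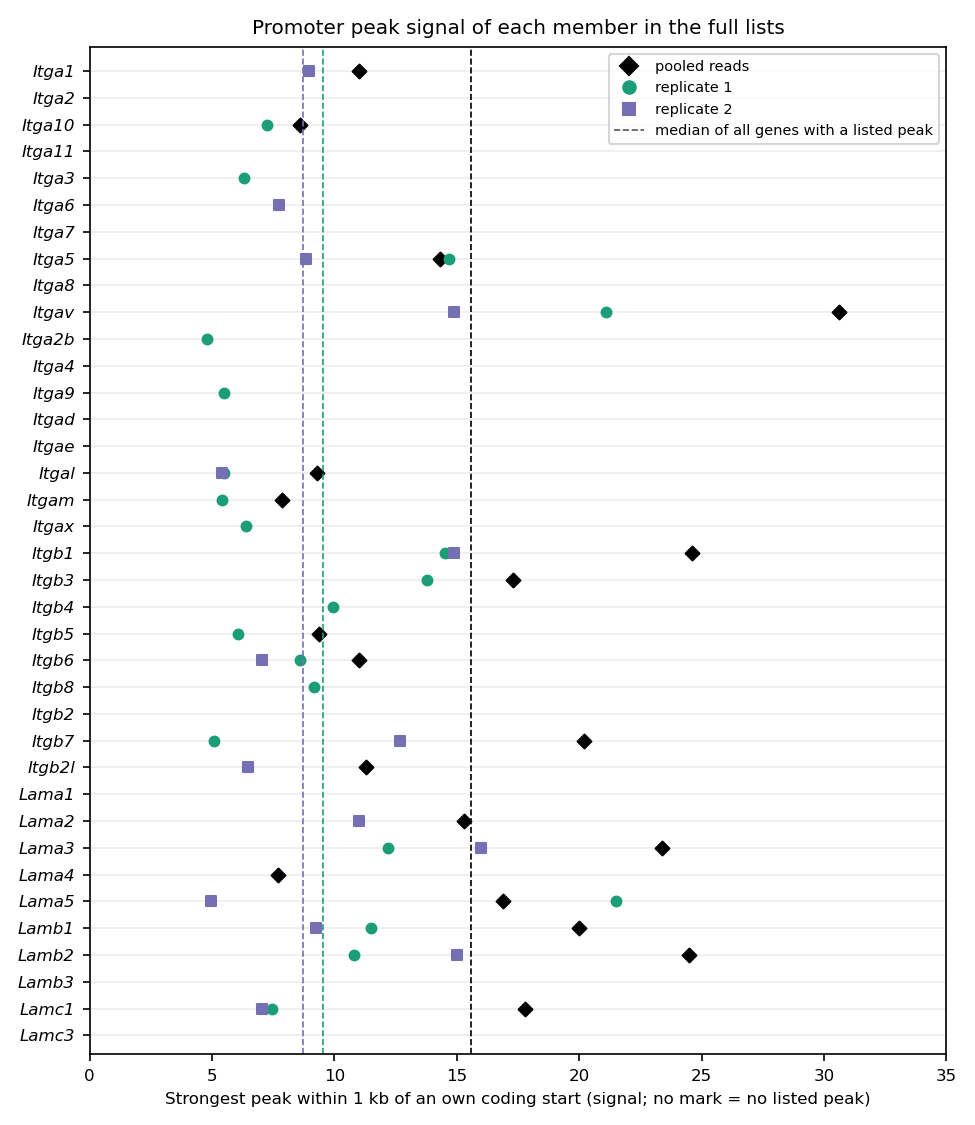
For 37 members, marks give the strongest peak within 1 kb of an own coding start in the pooled list and in each replicate list; a missing mark means no listed peak there. Dashed lines are the medians of all genes with such a peak, in the same colours (15.6 in the pooled list). Itgav lies farthest right in the pooled list, at 30.6.

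The 19 genes with no optimal summit were Itga2, Itga11, Itga6, Itga5, Itgav, Itga4, Itgad, Itgam, Itgax, Itgb3, Itgb5, Itgb8, Itgb2l, Lama1, Lama2, Lama3, Lama4, Lamb1 and Lamc1. Their strongest pooled-list peak had a median signal of 16.5, from 8.63 at Itgax to 30.6 at Itgav. The strongest peaks of the 2 replicate lists fell at the same place, within 560 bp, for Itgav alone. Lama2, the muscle laminin alpha chain and the longest member at 639.7 kb, had a highest pooled signal of 21.3.

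The signals of the 2 libraries were loosely related at these regions. Of the 46 summits, 42 had a peak in both replicate lists, 1 lacked it in replicate 1 and 3 in replicate 2. Over the optimal set 6865 of 7733 summits had both, 509 lacked a replicate 1 peak and 411 a replicate 2 peak. Each full list holds 300000 peaks, so this support can be weak. Across the 33 regions with both, Pearson's r of log2 signal was 0.60 and Spearman's rho 0.35, against 0.51 and 0.35 over 5590 regions of the optimal set. These are across regions of 1 pair of libraries and describe them only. The regions come from peaks kept by IDR for reproducibility, so the values are not independent of that choice. The SD of the log2 ratio of replicate 1 to replicate 2 was 0.86 at member regions and 0.77 over all.

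**Figure D5:**
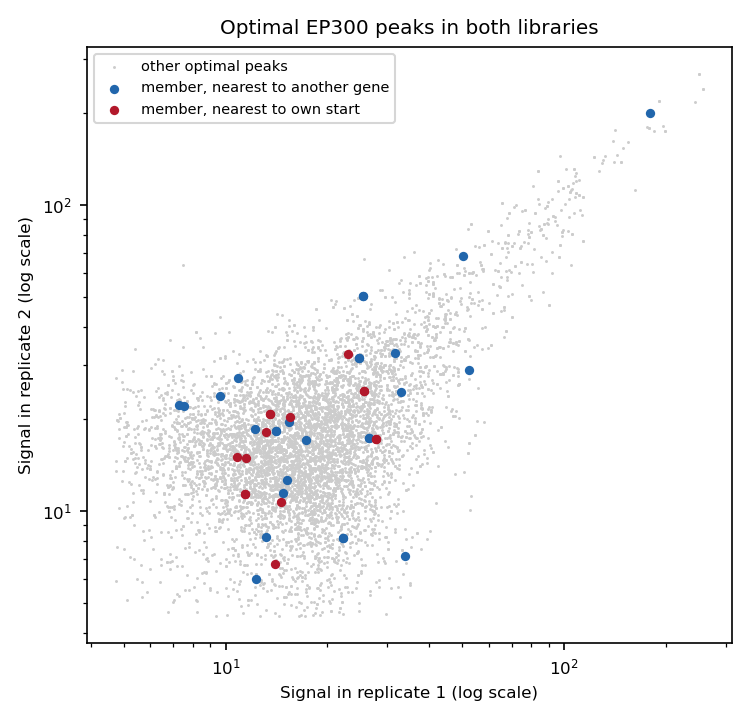
Each point is an optimal peak with its signal in replicate 1 (horizontal) and replicate 2 (vertical), both on log axes; grey points are other peaks, blue are member summits nearest to another gene and red are those nearest to a member's own start. Overlapping peaks share 1 replicate peak and so 1 point. The blue point at upper right is the Qrich1 peak in the Lamb2 territory (179.2 and 199.8).

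Genes that act with integrins and laminins were counted by the same territory rule, against the 36.7% of all genes. Among adaptors and signalling proteins that tie integrins to actin, 16 of 26 had a summit (61.5%, 40.6 to 79.8). Parva, an actin-binding partner of the integrin-linked kinase, had 10 summits, the strongest with 44.7, 19.5 and 19.3. Actn4 and Actn1, actin crosslinkers, had 8 and 4, with highest pooled signals of 46.1 and 40.4. Vasp, an actin filament elongation factor, had 3, the strongest with 33.8, 16.3 and 12.7 at 262 bp from its start. These genes had a median length of 51.4 kb, against 17.4 kb for all genes, and 11 of the 26 had a summit nearest to their own start, against 19.3% of all genes. No test was run, and the list was chosen with earlier results known.

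Of 7 hemidesmosome and anchoring genes, 6 had a summit (85.7%, 42.1 to 99.6), but only Plec and Dst had one nearest to their own start. The median length of the 7 was 31.3 kb, against 17.4 kb for all genes, and the share was not tested. Plec, the plakin that links Itgb4 to keratin, had 6 summits with a highest signal of 27.1, 14.8 and 16.8. Dst, another plakin, had 4, with a strongest of 30.3, 16.8 and 15.2. Krt14 and Col17a1 had 3 each. Their strongest were 41.9, nearest to Krt19, and 38.9, nearest to Sfr1. Of 21 basement membrane and matrix ligand genes, 4 had a summit (19.0%, 5.45 to 41.9), a share below that of all genes with an interval that includes it. These 21 genes were long, with a median of 106.5 kb. Col4a2 had 7 and Col4a1 had 3 of these, and the strongest in both territories was 1 shared peak of 38.3, 11.4 and 26.0 nearest to Col4a1. Hspg2, the perlecan gene, and Frem2 had 4 each. Of 5 other genes whose products act on integrins, 4 had a summit (80.0%, 28.4 to 99.5), namely Sharpin, Flna, Dok1 and Cd47. Only 2 of the 5, Flna and Cd47, had one nearest to their own start. Their median length was 26.4 kb. The strongest peak of Sharpin, with 69.7, 26.3 and 37.6, lay 113 bp from its gene start and was nearest to that of Maf1.

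The 201 bases around each summit were searched on both strands for 13 motifs, each given below by its letters, or by name alone. At least 1 match stood in 27 of 46 member windows (58.7%, 43.2 to 73.0) against 56.0% of all optimal windows. The TEAD motif, GGAATG, was in 9 member windows (19.6%, 9.36 to 33.9, against 14.2% of all). Of these, 7 were among the 17 own-start summits. The AP-1 motif, TGANTCA, was in 8 windows (17.4%, 7.82 to 31.4, against 12.7%), and 5 of these were at own starts. The own-start counts have no share of comparable summits beside them and were not tested. KLF and SP letters, GGGNGTGG or GGGGCGGGG, were in 8 windows (17.4% against 14.1%), with 1 at an own start. The GRHL motif, AACCNGTT, was in 4 windows (8.7% against 4.85%). The GATA motif, searched as AGATAA, was in 4 windows (8.7% against 8.11%), and the ETS motif, searched as CCGGAAG, in 3 windows (6.52% against 6.0%). There was 1 window with the RUNX motif TGTGGTT (2.17% against 3.63%) and 1 with the FOX motif TGTTTAC (2.17% against 4.81%). No member window held the SMAD letters GTCTAGAC, found in 0.194% of all windows, or the CRE letters TGACGTCA, found in 0.815%. The same held for the TP63 letters ACATGT, found in 4.55% of all windows, and for MEF2 and the CArG box, found in 0.841% and 1.77%. The upper limit of the interval at 0 of 46 windows is 7.71%. For every motif the share of all windows lay inside the members' interval. Each motif was counted on its own, so a base can belong to matches of more than 1. A match describes letters in the window and does not show that a factor bound there.

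In the Itgb6 intron the TEAD match came shortly before the AP-1 match on the plus strand, as the printed sequence shows. At Itgb1 the TEAD match was in the stronger upstream peak and an AP-1 match in the overlapping one. The promoter window of Lamb2 held a TEAD match alone and that of Itgb1 no match.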

How the data were processed

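EP300 ChIP-seq of newborn mouse stomach was deposited as 5 peak lists on mm10, of which 3 cover the pooled reads and each replicate and the rest are the IDR sets, optimal and conservative. The peak strength is the signal value the authors deposited, on its own scale in each list. The IDR sets also carry a deposited score, scaled to a maximum of 1000, and every deposited list a q column kept as a score and not used. The summit is deposited as an offset from the peak start. The readme texts, per the labels, name replicate 1 and replicate 2 lists as made from each alignment with further files, and the IDR sets as made from the pooled and both replicate lists. Neither the aligner nor the peak caller is given in the sources used here. Depth is unknown.

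Summits were assigned to GENCODE M21 protein-coding genes by gene body or 50 kb around the gene start, with 4 peaks off the named chromosomes left out. The nearest coding transcript start was recorded, and a promoter summit lies within 1 kb of one. Overlapping peaks were merged into regions. The replicate value of a peak is the strongest replicate-list peak with its summit inside it. Sequences were read from the GRCm38 assembly in Python, through an index made with samtools 1.23.1. Python 3.11.15, pandas 2.3.3, numpy 2.4.6 and scipy 1.17.1 were used, and the assignment was tested on simulated data. Members and lists were chosen with earlier results of these data known. Members with 3 or more summits or 1 of the 10 strongest peaks, and up to 4 genes of each partner list, were to be described. Some items are not reported here by name; counts over all members include them. Other peak sets, single libraries and territories were tried as alternatives. Those for partner genes and replicate agreement, and those for motif share other than the conservative set and a narrower motif window, were chosen after seeing the data.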

Additional observations from a re-analysis of the deposited data

How the results depend on the processing

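The count of members with a summit was 16 to 24 of 38 under 10 alternatives to the peak set, library, territory or member rule, against 19. The share of all genes, 36.7% in the report, changed too. In the stronger part of the optimal set it was 27.3% (members 42.1%), and with a 100 kb window 49.9% (members 63.2%). The member count was 10 with a 10 kb window and 10 by nearest start, rules that cover less DNA or drop neighbours' peaks. These were 26.3% of members each, against 20.1% and 19.3% of all genes. By those rules integrins numbered 6 and 5, member summits 18 and 19, promoter shares 33.3% and 15.8%, and partner genes 19 and 18 against 30. Member summits were 24 in the stronger part of the optimal set and 75 with a 100 kb window. Laminins with a summit fell to 3 in the stronger part of the optimal set, among the strongest pooled peaks and with the start window only. The log2 ratio of the members' median signal to that of all peaks, 0.02 in the report, was 0.13 in the conservative set, −0.09 in the stronger part, 0.10 among the strongest pooled peaks, −0.03 at 10 kb, 0.07 at 100 kb, −0.30 by nearest start and 0.05 by regions; with single libraries it ranged from 0.06 to 0.10. Pearson's r between libraries was 0.82 in the conservative set against 0.60. Both sets were kept by IDR, which picks peaks for reproducibility, so r within them is not independent of that choice. The cause of these shifts was not tested.

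With only the 7737 strongest peaks of a single replicate list, 20 members (52.6%) had a summit either way. The share of all genes was 40.7% for replicate 1 and 40% for replicate 2. Of the 20 members, 15 for replicate 1 and 16 for replicate 2 were among the 19. Itgb1, Itgb6, Itgb7, Lamb2 and Lamb3 had a summit under all 11 alternatives to peak set and territory, and 10 genes under none: Itga2, Itga11, Itga6, Itga4, Itgax, Itgb3, Itgb8, Itgb2l, Lama1 and Lama2. Itga8 and Lamc3 had none among the 7737 strongest peaks of either library. Weaker peaks were in both full replicate lists, with 11.4 and 11.4 at Itga8 and 12.3 and 5.99 at Lamc3. No paired analysis was possible because the study has 1 group. Unknown depth limits what an absent peak can show.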

Other observations

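Some peaks near members lay outside the counts of the report. The conservative set held peaks absent from the optimal set at 7 members, and those of Itga2b, Itga9 and Itgb4 overlapped an optimal peak. The others were at Itgav and Lama3, described in the report, at Itga3 and at Itgb5. The Itga3 peak lay 2269 bp from a coding transcript start of Itga3 itself, with 32.2 in the pooled list, 16.9 in replicate 1 and 16.6 in replicate 2. The Itgb5 peak, at 8618 bp, had 13.3 and 13.9, with no peak in replicate 2. Of the genes with similar symbols that the rule leaves out, Itgb1bp2 had 1 summit in its territory, and Itgbl1, Itgb1bp1 and Itgb3bp had 0.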
